A study of Homo sapiens with 12 samples.

Results

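The genes described here encode proteins of the mitochondrial ribosome. They were taken as all genes whose symbol begins with MRPL or MRPS followed by a number and whose array row carried that symbol alone. The rule found 65 genes, each with 1 row, among 14232 genes with a row of 1 symbol and 22011 rows in all. Of these 65, 43 encode proteins placed in the large subunit, MRPS30 among them in spite of its name, and 22 encode proteins of the small subunit. In a classification made by hand, proteins with a counterpart in bacterial ribosomes make up 38 of the 65. The other 27, with MRPS18B placed among them, were classed as found in mitochondria alone. A further 12 symbols of the family, such as MRPL3, MRPS12 and MRPS6, stood only on rows shared with another symbol. The pseudogenes MRPL42P5 and MRPL45P2 are among these 12. None of the 19 shared rows passed the test described below in any comparison, and they are left out.

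RNA came from HEK293 cells, an established line of human embryonic kidney origin, measured on 12 arrays in 4 groups of 3 biological replicates. All groups were transfected by lipofection 24 hours after plating, harvested 48 hours later, and sorted for living cells with GFP, so every group carries a GFP plasmid and was selected for it. The GFP group received nuclear GFP alone, the full-length group received MED12 joined at its N-terminus to that GFP, and the PQL/Opa-deleted group received the same fusion without the C-terminal PQL and Opa domains, all in pcDNA5/TO. The shRNA group received a hairpin against MED12 driven by the H1 promoter in peGFP-C1, a different GFP plasmid, so for this group the hairpin and the plasmid cannot be told apart. MED12 is a subunit of Mediator, the complex that carries signals from transcription factors to RNA polymerase II. The comparisons named by the design set each of the 3 MED12 groups against GFP, and the full-length and PQL/Opa-deleted groups were compared with each other as well.

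The mitochondrial ribosome translates the few messages of mitochondrial DNA, all of which encode subunits of the respiratory chain and ATP synthase. Its RNAs come from mitochondrial DNA, but its proteins come from nuclear genes, are made in the cytosol and are imported, so their messages are transcribed by RNA polymerase II. The small subunit holds the decoding site and the large subunit joins the amino acids, and the large subunit of mitochondria carries many proteins that bacteria lack.

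The MED12 row itself held log2 values of 4.03, 4.56 and 4.66 with GFP, 10.63 to 10.75 with full-length MED12, 8.62 to 9.25 with the PQL/Opa-deleted construct and 3.63 to 3.74 with shRNA. The shRNA difference of -0.75 had an adjusted p of 0.730. The labelled cell type had 9 of 10 listed kidney-line markers measured, with a median rank at the 76.5th percentile of all rows and 5 of them among the brightest 25% of rows. Leukocyte, erythroid, fibroblast and hepatocyte markers had median ranks at the 10.3rd, 19.4th, 49.1st and 40.6th percentiles, with 0 among the brightest 25%. The SD of all log2 values of an array ran from 1.34 to 1.60, and the 3 arrays with the smallest SD, called the narrow arrays here, were replicate 1 of the shRNA, GFP and PQL/Opa-deleted groups (1.34, 1.40 and 1.45).

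Most rows of the family ranked in the brighter part of all rows. Their spread between replicates was not smaller than usual, with a median residual SD of 0.29 against 0.28 over all rows. The mean log2 value of 58 of the 65 rows lay above the median of all rows, and 31 were among the brightest 25%, although the brightness of a row also depends on its probes. In the limma fit, no gene of the family passed the threshold of an adjusted p of 0.05 in any comparison; counts at an unadjusted p under 0.05 are given with each comparison. In RNA of pooled cells, a difference in some of the cells and one in all of them cannot be told apart. In the full-length comparison 0 of 65 passed, where 0.0136% of all rows did, and with the PQL/Opa-deleted construct 0 of 65 passed, where 0.00454% did. The counts were 0 of 65 against 0.0681% of rows with shRNA (0.0591% higher and 0.00909% lower), and 0 of 65 against 0.00454% of rows between the constructs. The F test for any difference among the 4 groups also called 0 of 65, against 0.0863% of rows, and had an unadjusted p under 0.05 for 3 of the 65. Its lowest adjusted p within the family was 0.44, for MRPL18.

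The median standard error of a log2 difference over the 65 genes was 0.233. Within a 2-fold change on either side lay the whole 95% confidence interval of 54 genes with full-length MED12, of 57 with the PQL/Opa-deleted construct and of 54 with shRNA. Between the constructs this held for 53 genes. MRPL41 and MRPS17 had the widest intervals, and MRPL43, with a standard error of 0.14, the narrowest.

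**Figure D1:**
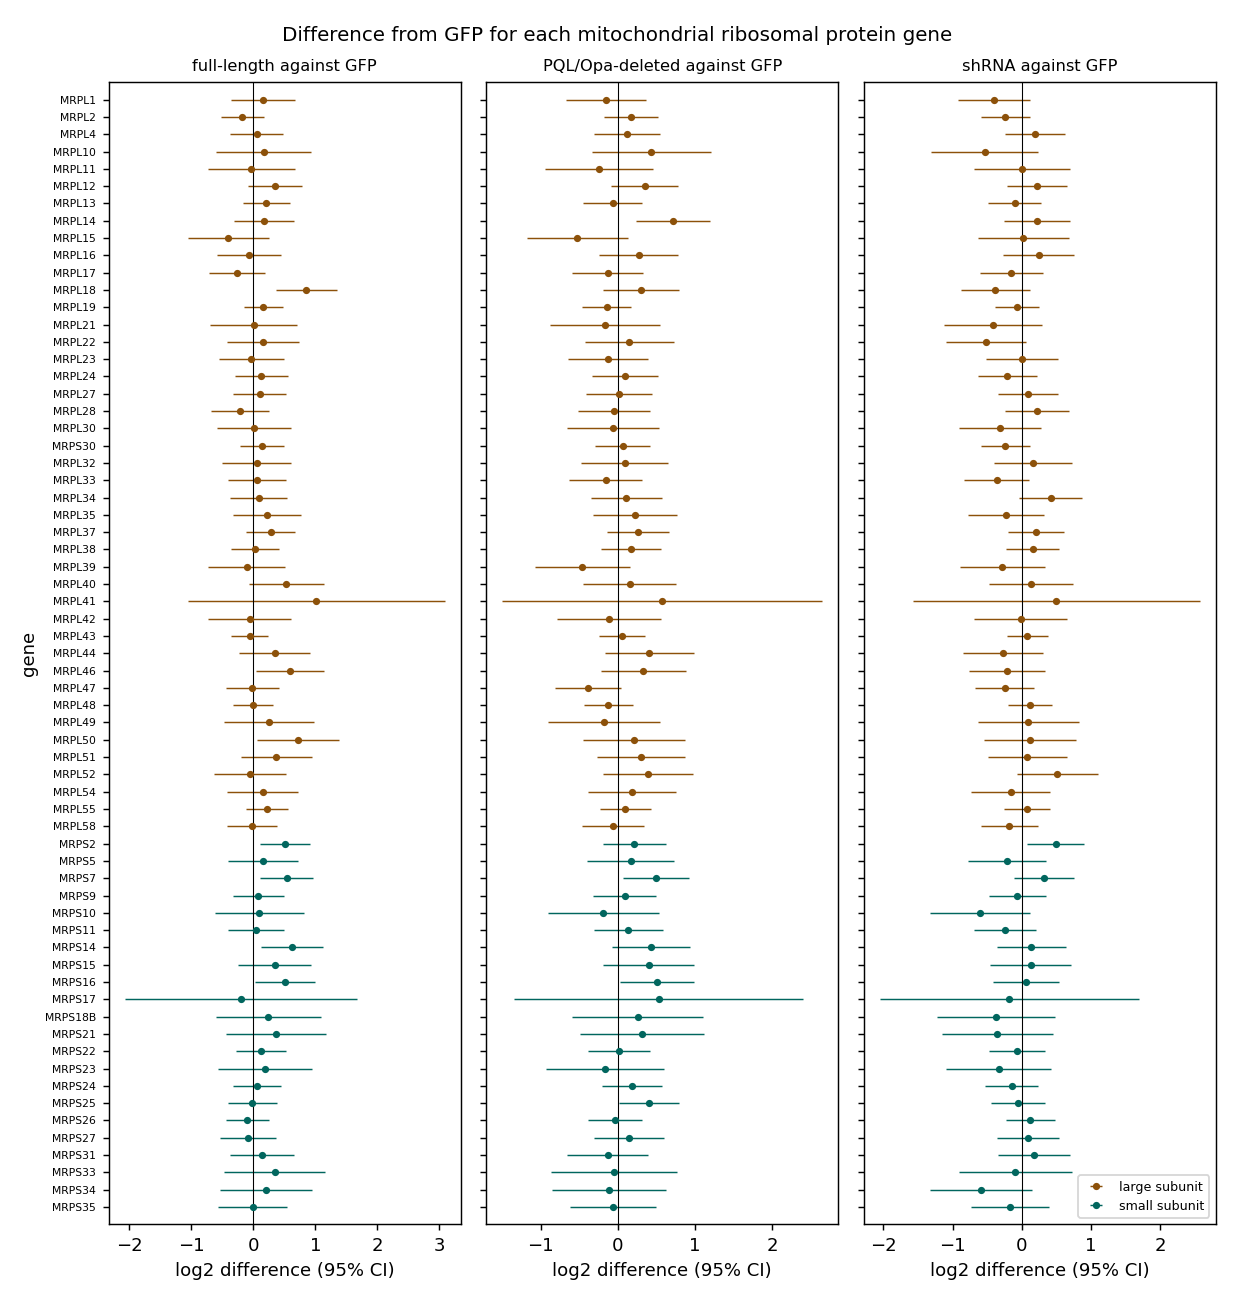
Log2 difference from GFP (horizontal axis) for each of the 65 genes (vertical axis), in 1 panel per group; points are differences between means of 3 arrays and lines are 95% confidence intervals from the fit, brown for the large subunit and green for the small. Most points lie within 0.5 of 0, and MRPL18 with full-length MED12 and MRPL14 with the PQL/Opa-deleted construct stand highest among the intervals that exclude 0.

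With full-length MED12, the messages tended to lie a little above GFP. The median log2 difference over the 65 genes was 0.13, with 46 above 0, and over all rows it was -0.01. At an unadjusted p under 0.05, 7 of the 65 were higher, where 1.44% of all rows were, and 0 were lower, where 1.36% were. In 8 genes all 3 arrays lay above all 3 GFP arrays (4.03% of rows did so), and in 2 genes all lay below (3.70% of rows). The rows of brighter genes shared part of this: over rows above the median level the median difference was 0.03. Without GFP replicate 1, a narrow array in which 41 of the 65 genes had their lowest GFP value, the median was 0.02, against 0.03 for all rows, and 36 genes lay above 0. The count at an unadjusted p under 0.05 was 2 without GFP replicate 1, 4 without full-length replicate 2 and 2 without full-length replicate 3.

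MRPL18 had the lowest p of the family with full-length MED12. Its protein is part of the central protuberance of the large subunit, and a shorter form made in heat-shocked cells acts on cytosolic ribosomes. Its log2 values were 5.03, 5.55 and 5.58 with GFP and 5.96, 6.42 and 6.34 with full-length MED12. They were 5.42, 5.95 and 5.70 with the PQL/Opa-deleted construct and 4.67, 5.29 and 5.06 with shRNA. All full-length arrays therefore lay above every other array, and replicate 1 was the lowest of its group in all 4 groups. The full-length group exceeded GFP by 0.86 ± 0.23 (SE, log2), which is 1.81-fold, with a 95% confidence interval of 0.36 to 1.35. That difference had an unadjusted limma p of 0.0029 and an adjusted p of 1.00. It exceeded the PQL/Opa-deleted group by 0.56 (unadjusted p = 0.0317), and shRNA lay 0.38 below GFP (difference -0.38, unadjusted p = 0.1198). When the fit held the replicate number as a block, the full-length difference had an adjusted p of 0.134. The F test of that fit gave MRPL18 an adjusted p of 0.0205, and it called no other gene of the family. The share of all rows that this F test called is not given here, so the call is not set against a background. Over all alternatives the adjusted p ranged from 0.134 to 1.00 for the difference and from 0.00183, with array weights, to 1.00 for the F test. Leaving out GFP replicate 1 gave a difference of 0.68.

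The promoter of MRPL18 is shown because this gene led the family. RefSeq (GRCh38.p14) places the 200 bases before its start at chr6:159789612-159789811 on the plus strand. The TCP1 gene, which encodes a subunit of the chaperonin that folds actin and tubulin, starts 210 bases upstream on the other strand and has no row of its own here. Capitals mark the CCAAT box, which begins at position -60, with -1 as the last base before the start.
MRPL18: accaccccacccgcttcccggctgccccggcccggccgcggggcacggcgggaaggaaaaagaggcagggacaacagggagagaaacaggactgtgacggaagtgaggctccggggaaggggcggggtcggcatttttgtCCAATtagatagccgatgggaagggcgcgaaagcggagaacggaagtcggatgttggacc

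The other large subunit genes with an unadjusted p under 0.05 in the full-length comparison were MRPL46 and MRPL50, both encoding proteins that bacterial ribosomes lack. MRPL46, another protein of the central protuberance, read 3.97, 3.96 and 4.35 with GFP and 4.56, 4.60 and 4.90 with full-length MED12. All of its full-length arrays were above all of its GFP arrays, by 0.59 on average (unadjusted p = 0.0363). MRPL50 read 3.05, 3.51 and 4.23 with GFP and 3.96, 4.58 and 4.42 with full-length MED12. These groups overlapped, because GFP replicate 3 was above full-length replicate 1, and the difference was 0.72 ± 0.30 (SE). Over all alternatives it fell as low as 0.45. MRPL40, which also belongs to the central protuberance, differed by 0.53 without overlap (unadjusted p = 0.0803). The neighbouring proteins MRPL38 and MRPL48 differed by 0.02 and -0.01.

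In the small subunit, 4 genes had an unadjusted p under 0.05, and all 4 encode proteins shared with bacteria. MRPS7 and MRPS14 lie in the head of the subunit, where the tRNAs are held. MRPS7 read 5.07, 5.64 and 5.59 with GFP, 5.78, 6.0 and 6.11 with full-length MED12, and 5.93, 6.07 and 5.77 with the PQL/Opa-deleted construct. Every array of both constructs was above every GFP array. The differences were 0.54 ± 0.19 (SE) for full-length MED12 and 0.49 ± 0.19 (SE) for the PQL/Opa-deleted construct. Over all alternatives they fell as low as 0.35 and 0.31. A row shared by MRPS7 and MIF4GD differed by 0.17 and 0.20. The shRNA arrays of MRPS7, at 5.83, 5.93 and 5.49, overlapped with GFP and differed by 0.32. For MRPS14 the values were 3.07, 3.59 and 3.48 with GFP, 3.91, 4.39 and 3.71 with full-length MED12, and 3.72, 3.89 and 3.82 with the PQL/Opa-deleted construct. Again no array of either construct overlapped with GFP, and the differences were 0.62 and 0.43. Over all alternatives they fell as low as 0.43 and 0.27. GFP replicate 1 was the lowest GFP array of both MRPS7 and MRPS14.

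MRPS2, which sits between head and body of the small subunit, was the gene that stood above GFP both with full-length MED12 and with shRNA. It read 3.70, 3.29 and 3.78 with GFP, 4.09, 4.0 and 4.21 with full-length MED12, and 4.36, 4.06 and 3.82 with shRNA. Neither group overlapped with GFP, and the differences were 0.51 and 0.49 (unadjusted p = 0.0186 and 0.0230). With the PQL/Opa-deleted construct, at 3.97, 3.73 and 3.70, it overlapped with GFP and differed by 0.21. MRPS16, a protein of the body, read 4.27, 4.56 and 5.07 with GFP, 5.36, 4.80 and 5.27 with full-length MED12, and 5.16, 5.14 and 5.10 with the PQL/Opa-deleted construct. Its differences were 0.51 and 0.50, and only the second came without overlap. Over all alternatives they fell as low as 0.33 and 0.31.

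**Figure D2:**
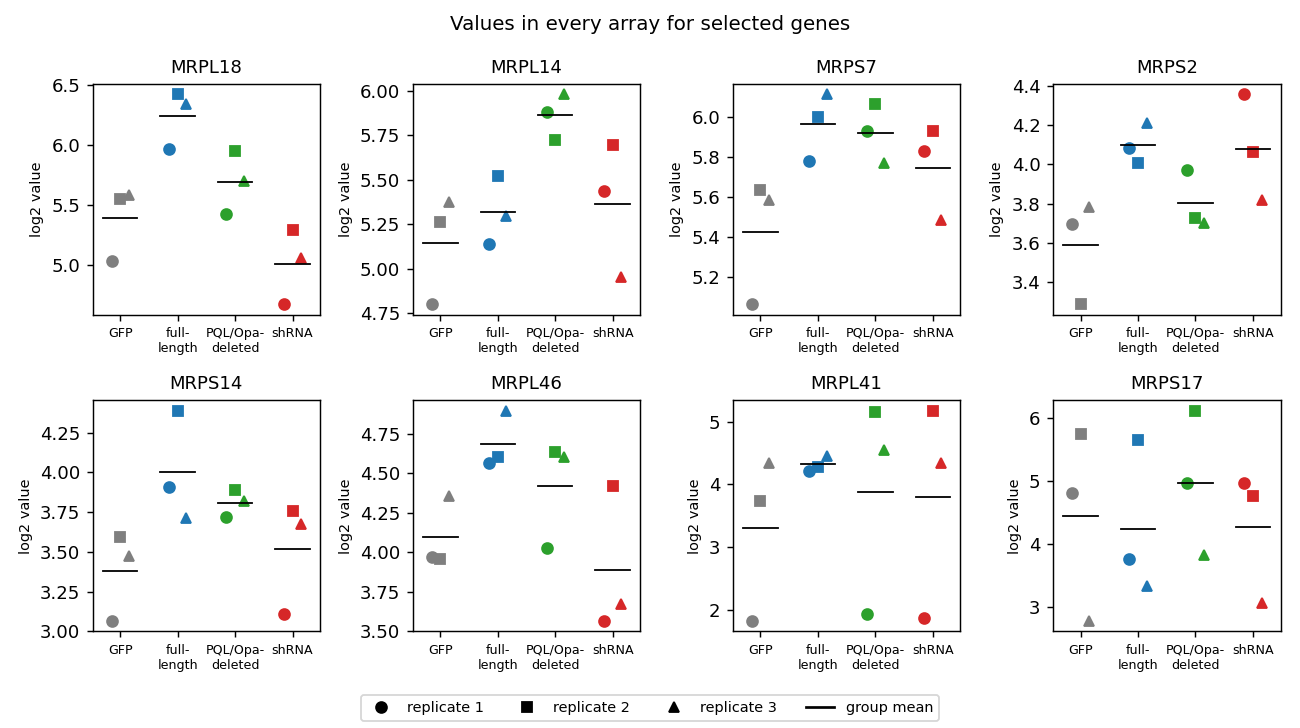
Log2 values (vertical axis) in every array for 8 genes, by group (horizontal axis); marker shape gives the replicate number and the black bar the mean of 3 arrays, and each panel has its own scale that does not start at 0. MRPL18 is highest in the full-length group and MRPL14 in the PQL/Opa-deleted group, while MRPL41 has single arrays near 1.9 in 3 groups and MRPS17 is lowest in replicate 3 of every group.

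Of the 19 genes below GFP with full-length MED12, MRPL15 had the lowest p. MRPL15, a protein of the large subunit core, read 4.27, 4.38 and 4.25 with GFP and 3.87, 3.67 and 4.17 with full-length MED12. No array overlapped, and the difference of -0.40 had an unadjusted p of 0.2063. MRPL17 had the next lowest p among genes below GFP, at a difference of -0.27, followed by MRPL2, a protein near the site of peptide bond formation, at -0.18. MRPL28 differed by -0.21 and MRPS26 by -0.10.

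The PQL/Opa-deleted construct gave a similar small offset. The median difference from GFP was 0.11, with 41 of 65 genes above 0, while that of all rows was -0.01. An unadjusted p under 0.05 was reached by 4 genes that were higher (1.75% of rows) and by 0 that were lower (1.70% of rows). All 3 arrays lay above GFP in 6 genes (4.13% of rows) and below it in 2 (3.79% of rows). This comparison uses the same GFP arrays as the full-length one, so the likeness of the medians is not independent. Without GFP replicate 1 the median was 0.02, and without PQL/Opa-deleted replicate 2 it was 0.03. The count at an unadjusted p under 0.05 was 2 without either of these arrays or full-length replicate 3, 1 without PQL/Opa-deleted replicate 1, and 7 with the replicate block.

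MRPL14 led this comparison. Its protein faces the small subunit at the interface and binds the assembly factor MALSU1. The values were 4.80, 5.26 and 5.38 with GFP, 5.14, 5.52 and 5.30 with full-length MED12, 5.88, 5.72 and 5.98 with the PQL/Opa-deleted construct, and 5.44, 5.70 and 4.95 with shRNA. All 3 PQL/Opa-deleted arrays were above the arrays of the other groups. The difference from GFP was 0.72 ± 0.22 (SE), or 1.64-fold, with an unadjusted limma p of 0.0069 and an adjusted p of 1.00. It was 0.54 on leaving out GFP replicate 1.

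MRPS25, a small subunit protein that bacteria lack, behaved likewise among the groups. It read 4.09, 4.55 and 4.49 with GFP, 4.29, 4.49 and 4.30 with full-length MED12, and 4.80, 4.69 and 4.86 with the PQL/Opa-deleted construct. The last group did not overlap with either of the others, and its difference from GFP was 0.41 ± 0.18 (SE). Below GFP with this construct lay MRPL15, at 3.54, 3.85 and 3.93 and a difference of -0.53 without overlap. MRPL47, a protein near the tunnel through which the new chain leaves, read 4.47, 4.44 and 4.28 with GFP and 3.67, 4.30 and 4.06 with the construct. The highest of these construct arrays was just above the lowest GFP array, and the difference was -0.39. MRPL39 differed by -0.46, MRPL19 by -0.15 and MRPL48 by -0.12.

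Set against each other, the constructs differed by a median of 0.06 (full-length minus PQL/Opa-deleted), with 40 of 65 genes above 0. At an unadjusted p under 0.05, 1 gene was higher with full-length MED12 (1.11% of rows), MRPL18, and 2 were lower (0.795% of rows), MRPL14 and MRPS25. The difference was -0.54 for MRPL14, with a 95% confidence interval of -1.02 to -0.07. For MRPS25 it was -0.42, with an interval of -0.81 to -0.03. The arrays of the full-length group lay all above those of the other in 4 genes (3.81% of rows) and all below in 6 (3.09% of rows). After adjustment over all rows none of these differences passed, and leaving out 1 array moved the count at an unadjusted p under 0.05 between 0 and 4. For MRPS7, whose constructs each stood above GFP, the difference between them was 0.04.

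With shRNA the median difference lay slightly below 0. It was -0.07, with 29 of 65 genes above 0, and the median of all rows was 0.02. An unadjusted p under 0.05 was reached by MRPS2 alone among the higher genes (2.47% of rows were higher) and by 0 of the lower ones (2.58% of rows). All 3 arrays were above GFP in 1 gene (4.71% of rows) and below it in 2 (3.85% of rows). This median rested on single arrays: it was 0.00 without shRNA replicate 1, -0.17 without shRNA replicate 2, -0.02 without shRNA replicate 3, -0.12 without GFP replicate 1, -0.03 without GFP replicate 2 and -0.00 without GFP replicate 3. The count at an unadjusted p under 0.05 was 8 without GFP replicate 1, 7 without shRNA replicate 2, 3 without shRNA replicate 3, 2 without PQL/Opa-deleted replicate 1 and 0 without GFP replicate 2.

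The largest negative differences with shRNA were those of MRPS10, MRPS34, MRPL10 and MRPL22, and in all 4 genes shRNA replicate 1 was the lowest array. MRPS10, a protein of the small subunit head, read 5.18, 5.78 and 5.94 with GFP and 4.17, 5.46 and 5.48 with shRNA, a difference of -0.60 ± 0.33 (SE). MRPS34, which stabilises the small subunit, read 3.73, 4.62 and 4.81 with GFP and 3.16, 4.27 and 3.95 with shRNA, a difference of -0.59 ± 0.34 (SE). In MRPL22, which lines the exit tunnel, the values were 4.31, 4.49 and 4.61 with GFP and 3.48, 4.44 and 3.92 with shRNA, and the difference was -0.52. MRPL10, a protein of the stalk base, read 4.71, 5.44 and 5.61 with GFP and 3.94, 5.15 and 5.07 with shRNA, a difference of -0.54 ± 0.35 (SE). All 4 genes overlapped between the groups. MRPL1, a protein of the mobile stalk where deacylated tRNA leaves, differed by -0.41, with shRNA replicate 3 lowest.

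Above GFP with shRNA, after MRPS2, lay MRPL34 and MRPL52. MRPL34 read 3.24, 2.91 and 3.11 with GFP and 3.91, 3.38 and 3.22 with shRNA, a difference of 0.41 with overlap. MRPL52 read 3.16, 2.38 and 2.81 with GFP and 3.39, 3.15 and 3.35 with shRNA. Its lowest shRNA array was just below its highest GFP array, and the difference was 0.51 ± 0.27 (SE). In order of p, MRPS7 and MRPL37 came next, with differences of 0.32 and 0.21.

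By structural class, the small subunit proteins that bacteria share had the highest medians with both constructs. Of these 12 genes, 11 lay above 0 with full-length MED12, with a median of 0.25, and 11 with the PQL/Opa-deleted construct, with a median of 0.26. The 10 small subunit genes found in mitochondria alone had medians of 0.13 and -0.04. In the large subunit, the 26 shared genes had medians of 0.07 and 0.05, and the 17 mitochondrial ones 0.15 and 0.17. With shRNA the 4 classes had medians between -0.11 and 0.08. Without GFP replicate 1 the median over all 65 genes was 0.02 with either construct, and class medians were not taken without that array. Differences between classes were not tested, because genes are not replicates.

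Variation between arrays was as large as that between groups. The median of the 65 log2 values, each taken relative to the gene's GFP mean, was -0.18, 0.05 and 0.14 in the GFP arrays and 0.05, 0.19 and 0.06 in the full-length arrays. It was -0.01, 0.12 and 0.09 in the PQL/Opa-deleted arrays and -0.16, 0.18 and -0.15 in the shRNA arrays. The groups overlapped, and the lowest arrays, GFP replicate 1 and shRNA replicates 1 and 3, are among the 4 with the smallest SD of all log2 values. With the arrays scaled to a common median and spread, the family's median difference with full-length MED12 was 0.08, with the PQL/Opa-deleted construct 0.07 and with shRNA -0.07.

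**Figure D3:**
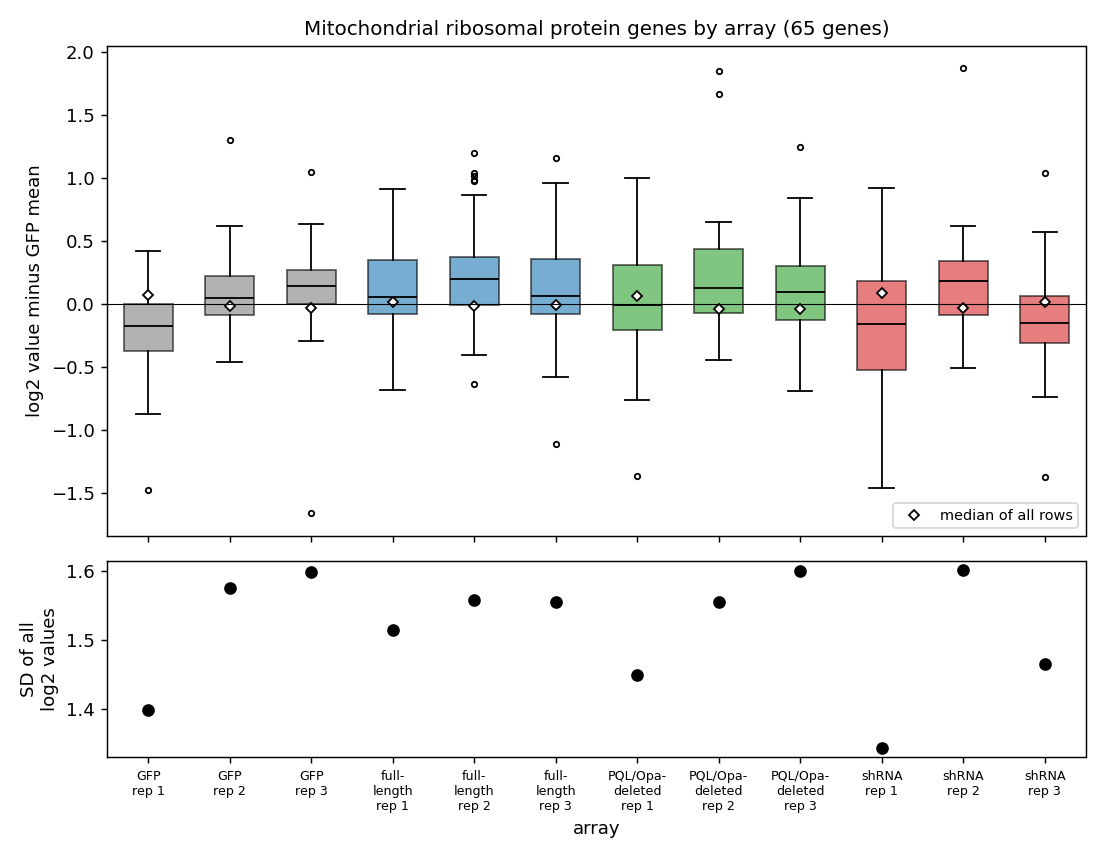
Top: log2 value minus the gene's GFP mean (vertical axis) for the 65 genes in each of the 12 arrays (horizontal axis); boxes show quartiles, lines medians, whiskers the range within 1.5 times the box and circles genes beyond it, and diamonds the median of all rows. Bottom: standard deviation of all log2 values of the array, on an axis that does not start at 0; the 3 narrowest arrays are replicate 1 of the shRNA, GFP and PQL/Opa-deleted groups.

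The narrow arrays were low together in part of the family. In 9 of the 65 the 3 narrowest arrays all lay below the other 9 arrays, namely MRPL41, MRPL42, MRPS5, MRPS10, MRPS15, MRPS18B, MRPS23, MRPS33 and MRPS34; the share was 13.8%, against 6.78% of all rows. The reverse pattern occurred in 0 of the 65 and in 10.2% of rows. These shares are over rows of every level, whereas 58 of the 65 genes lay above the median level. Shares over rows of like level were not taken, so neither contrast is read as a trait of the family. Replicate 1 was lowest in all 4 groups in MRPL18, MRPL41, MRPL42, MRPS15 and MRPS18B, which is 7.69% of the family against 9.25% of all rows. Replicate 2 was lowest in all 4 in MRPL28 (1.54% against 3.47%), and replicate 3 in MRPS17 and MRPS22 (3.08% against 1.66%).

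MRPL41 and MRPS17 varied most among replicates. MRPL41, a large subunit protein that also binds the survival factor BCL2, read 1.83, 3.74 and 4.35 with GFP and 4.22, 4.28 and 4.46 with full-length MED12. It read 1.93, 5.15 and 4.55 with the PQL/Opa-deleted construct and 1.88, 5.17 and 4.34 with shRNA. The 3 values below 2 came from the 3 narrowest arrays, and the remaining 9 lay between 3.74 and 5.17. Its residual SD of 1.38 was above that of 99.9% of rows, and the full-length difference of 1.01 ± 0.95 (SE) was within that spread. MRPS17, a protein of the small subunit body, read 4.82, 5.75 and 2.79 with GFP, 3.76, 5.65 and 3.34 with full-length MED12, 4.98, 6.12 and 3.84 with the PQL/Opa-deleted construct and 4.97, 4.77 and 3.08 with shRNA. Replicate 3 was the lowest in each group, and the residual SD was 1.24.

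MRPS18B, MRPS33 and MRPS21 came next, with residual SDs of 0.54, 0.52 and 0.51. MRPS18B, 1 of several human forms of its protein, read 5.15, 5.81 and 5.83 with GFP and 4.34, 5.98 and 5.38 with shRNA. MRPS33 read 2.90, 4.40 and 4.04 with GFP and 3.06, 4.19 and 3.80 with shRNA, so that replicate 1 was low in both. MRPS21 read 3.61, 4.17 and 4.07 with GFP and 2.89, 4.43 and 3.47 with shRNA.

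After the group means were removed, the genes of the family moved together only weakly. The median Pearson correlation between pairs of the 65 genes over 12 arrays was 0.15, and 22.7% of pairs exceeded 0.5. Over pairs of all 14232 genes the median was 0.04 and 21.5% exceeded 0.5, and for genes of like or higher level it was 0.07 and 25.6%. Cytosolic ribosomal proteins had a median of 0.02 over 30 genes and subunits of oxidative phosphorylation 0.24 over 55. These points share arrays and their spread, so the values are descriptions. MRPL2, MRPL28, MRPL52, MRPL38 and MRPL34 ran against the others, with median correlations from -0.48 to -0.21.

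Promoters of 58 of the 65 genes were found in RefSeq windows (GRCh38.p14) of 250 bases before to 50 bases after the start, with the first listed start used where a gene had more, as 10 did. The 7 without a window were MRPL2, MRPL10, MRPL13, MRPL15, MRPL21, MRPL23 and MRPL35. Both strands were searched for the letters of 6 short motifs, chosen after the expression values were known, and the same was done for the first window of 15843 protein-coding genes and of all 27305 genes in the table. The letters CCGGAAG, bound by ETS factors such as GABP, stood in 23 of the 58 (39.7%), against 14.2% of protein-coding genes and 10.7% of all. GATGGCG, the core of the YY1 motif, stood in 14 (24.1%), against 5.71% and 4.35%. GCANGCG, part of the motif of nuclear respiratory factor 1, stood in 18 (31%), against 26.3% and 20.5%.

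The other letters searched were no more frequent than in the background. CCAAT stood in 29.3% of the 58, against 36.4% of protein-coding genes and 35.7% of all. CACGTG, the E-box, stood in 5.17% against 8.88% and 7.43%. TATAAA stood in 3.45% against 9.63% and 12.0%. The median GC content was 60.2% in the family and 62.7% in protein-coding genes. A match says only that the letters are there.

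**Figure D4:**
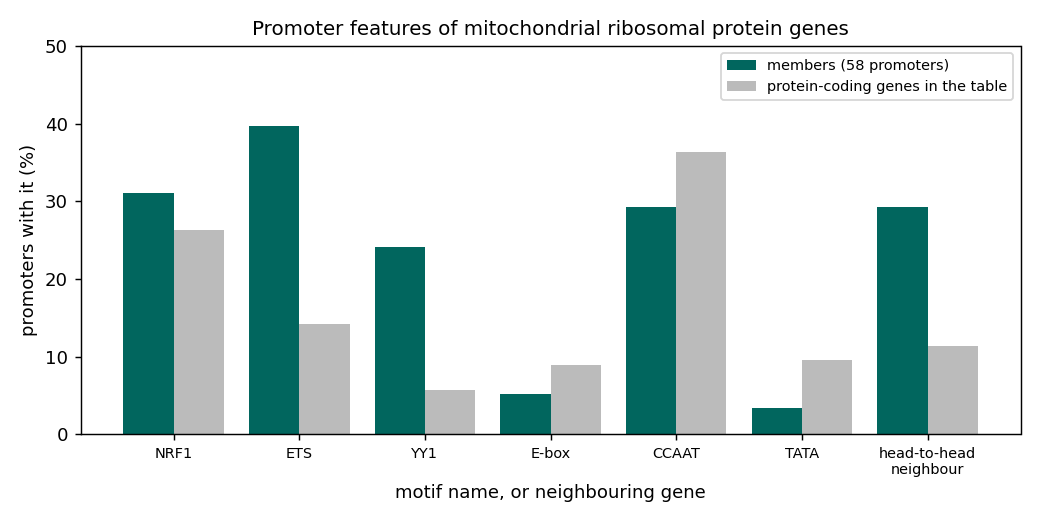
Share of promoters (percent, vertical axis) that hold each motif, by motif name, or that have the start of another protein-coding gene on the opposite strand within 1000 bases upstream (horizontal axis); dark bars are the 58 genes of the family with a promoter and grey bars the 15843 protein-coding genes. The ETS, YY1 and neighbour bars of the family are higher than the grey ones (39.7% against 14.2%, 24.1% against 5.71% and 29.3% against 11.3%).

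Of the 15 matches to the YY1 letters in 14 genes, 12 read on the sense strand, and 9 of these began between 9 and 38 bases after the start. These 9 are shown with up to 7 bases on either side, the match in capitals. They were chosen because they lie in a like place on the same strand and extend alike beyond the letters searched. The letters hold ATG, and whether a match overlaps the start of the coding sequence was not examined.
MRPL22 (chr5:154941103-154941122, plus strand): ggcgaaaGATGGCGgcggca
MRPL38 (chr17:75904863-75904883, minus strand): gagggaaGATGGCGgcgccct
MRPL42 (chr12:93467517-93467537, plus strand): gaaacaaGATGGCGggttcgt
MRPL46 (chr15:88467365-88467385, minus strand): aacgaaaGATGGCGgcgcccg
MRPL50 (chr9:101398580-101398600, minus strand): catcgaaGATGGCGgcgcgat
MRPS10 (chr6:42217837-42217857, minus strand): ccggcaaGATGGCGgcgcgga
MRPS18B (chr6:30617858-30617878, plus strand): acgtcaaGATGGCGgcgtctg
MRPS24 (chr7:43869483-43869503, minus strand): ggcccaaGATGGCGgcctccg
MRPS30 (chr5:44808955-44808975, plus strand): gggcaaaGATGGCGgcggcca

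With full-length MED12, 11 of the 14 genes with the YY1 letters lay above 0, with a median of 0.12, against a median of 0.13 over the 44 without. With the PQL/Opa-deleted construct 12 of the 14 lay above 0, and the medians were 0.19 and 0.09. With shRNA 6 of the 14 lay above 0, and the medians were -0.08 and -0.03. Single genes of the 14 with full-length MED12 ranged from MRPL50 at 0.72 and MRPL46 at 0.59 to MRPL38 at 0.02 and MRPS17 at -0.20. The ETS letters are shown next, in capitals, for 3 genes described above. Those of MRPS34 and MRPS16 read on the antisense strand and those of MRPL40 on the sense strand.
MRPS34 (chr16:1773192-1773212, minus strand): ttcctcgCTTCCGGccgcgac
MRPS34 (chr16:1773150-1773170, minus strand): ccggcctCTTCCGGtgacttc
MRPS34 (chr16:1773140-1773160, minus strand): ccggtgaCTTCCGGccggacc
MRPS16 (chr10:73252626-73252646, minus strand): tcatccgCTTCCGGagtcgag
MRPL40 (chr22:19432527-19432547, plus strand): cgcacgcCCGGAAGcggcgag

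In MRPL14, the gene that led the PQL/Opa-deleted comparison, the letters of nuclear respiratory factor 1 began at position -121, counted with -1 as the last base before the start. The promoter of MRPL41, the most variable gene, held 4 CCAAT boxes, in capitals on either strand, in the 200 bases before its start (chr9:137551679-137551878, plus strand).
MRPL14 (chr6:44127416-44127436, minus strand): ctggcgcGCAGGCGctaggaa
MRPL41: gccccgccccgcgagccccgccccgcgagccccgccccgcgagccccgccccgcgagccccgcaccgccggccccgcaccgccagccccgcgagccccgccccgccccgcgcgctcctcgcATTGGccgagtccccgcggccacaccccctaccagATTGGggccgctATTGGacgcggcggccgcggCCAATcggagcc

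Genes with and without the ETS letters were compared by their medians, with no test. With full-length MED12 the median difference was 0.09 over the 23 genes with the letters and 0.15 over the 35 without. With the PQL/Opa-deleted construct these medians were -0.04 and 0.15, and with shRNA 0.06 and -0.06. For the letters of nuclear respiratory factor 1 they were 0.20 and 0.10 with full-length MED12, 0.19 and 0.06 with the PQL/Opa-deleted construct, and 0.07 and -0.07 with shRNA, over 18 genes with them and 40 without. The message of NRF1, the nuclear respiratory factor, differed from GFP by -0.15, 0.10 and -0.14 with full-length MED12, the PQL/Opa-deleted construct and shRNA, with unadjusted p of 0.33, 0.52 and 0.35.

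Some of these genes start near another gene on the opposite strand, and shared regulation was not tested. A protein-coding gene started on the opposite strand within 1000 bases upstream in 17 of the 58 (29.3%), against 11.3% of protein-coding genes. MRPL46 and MRPS11 are such a pair, 320 bases apart and both counted among the 17, with differences of 0.59 and 0.04 for full-length MED12. MRPS7 stands 273 bases from GGA3, which encodes a clathrin adaptor, and these differed by 0.54 and 0.26 for full-length MED12. MRPL50 stands 233 bases from the zinc finger gene ZNF189, with differences of 0.72 and 0.36. MRPS2 lies 813 bases from PIERCE1, with differences of 0.51 and -0.02.

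Other genes of mitochondrial translation likewise had 0 members past the threshold in every list and comparison. Of 14 translation factors measured, 11 lay below GFP with shRNA, with a median of -0.28. Below GFP lay 10039 of 22011 rows in all and 6084 of the 11006 rows above the median level. At an unadjusted p under 0.05, 5 of the 14 were lower, where 2.58% of all rows were and 440 of those 11006. The family's shRNA median rested on single arrays, and medians of this list with single arrays left out are not given here. The lowest p belonged to MTIF2, the initiation factor, with a difference of -0.66 ± 0.20 (SE) and an adjusted p of 0.857, and to MRRF, the ribosome recycling factor, with -0.61 and an adjusted p of 0.910. With the constructs, TACO1, the translational activator of the COX1 message, differed by 0.61 for full-length MED12 and 0.56 for the PQL/Opa-deleted construct, while MRRF differed by -0.36 for the first. SLIRP, which stabilises mitochondrial messages, differed by 0.34 for the second.

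Of all 22011 rows, 11972 lay above GFP with shRNA and 10039 below. Among 15 aminoacyl-tRNA synthetases and related enzymes, 12 lay below GFP with shRNA, at a median of -0.06. MARS2 and HARS2, which charge the methionine and histidine tRNAs of mitochondria, differed by -0.41 and -0.45. Of 20 assembly factors, 12 were above 0 with shRNA, at a median of 0.06, and NOA1, a GTPase, differed by -0.38. MRM1, an rRNA methyltransferase, differed by -0.40 for full-length MED12 and by -0.39 for the PQL/Opa-deleted construct. Of 15 genes of mitochondrial transcription and DNA maintenance, 10 lay below 0 with shRNA, at a median of -0.26, among them TFB2M, the transcription factor that melts the promoter, with -0.51. TWNK, the mitochondrial helicase, differed by 0.46 with the PQL/Opa-deleted construct.

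The 4 measured mitoribosomal proteins with other names had medians of 0.14, 0.16 and 0.03 for full-length MED12, the PQL/Opa-deleted construct and shRNA. CHCHD1 among them differed by 0.40 with full-length MED12, OXA1L by 0.26 and GADD45GIP1 by 0.28 with the PQL/Opa-deleted construct, and DAP3 by -0.15 with shRNA. The 7 regulators of mitochondrial biogenesis had medians of 0.04, 0.08 and -0.10, and MYC differed by -0.26 with full-length MED12.

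Subunits of oxidative phosphorylation, whose mitochondrial members this ribosome makes, also had medians above 0 with the constructs. Over 55 nuclear genes the medians were 0.17 with full-length MED12, 0.15 with the PQL/Opa-deleted construct and 0.04 with shRNA. With full-length MED12 43 (78.2%) were above 0, against 48.6% of all rows and 56.6% of rows above the median level. With the PQL/Opa-deleted construct 41 (74.5%) were, against 48.4% and 54.1%. These comparisons use the same GFP arrays as those of the family, and medians of this list without GFP replicate 1 are not given here. NDUFB10 and NDUFS6, subunits of complex I, differed by 0.55 and 0.36 with full-length MED12, and ATP5PB, of ATP synthase, by 0.74 with the PQL/Opa-deleted construct. The 30 cytosolic ribosomal proteins had medians of 0.07, 0.16 and 0.02, with RPS14 at 0.93 and RPL8 at 0.51 for the PQL/Opa-deleted construct. No test of the difference between these lists and the family was made.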

How the data were processed

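RNA of 12 samples was amplified, labelled with biotin and hybridised to 1-colour arrays. The authors deposited log2 expression values made with Partek and RMA on build hg18, per the submitters' processing notes; of the versions, probe level and filters nothing is given in the sources used here. Values were used as deposited, with 0 columns left out. Rows were named through the platform's gene table; 2408 rows with several symbols and 5171 with none stayed in the fit unnamed.

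With limma 3.58.1 in R 4.3.3, 4 group means were fitted over 12 arrays and 22011 rows (lmFit and eBayes, no trend; residual degrees of freedom 8, prior 3.52). Two-sided p-values were adjusted by Benjamini-Hochberg over the 22011 rows, with 0.05 as the threshold; every p given is limma's. The number of arrays limits the precision. In data simulated for shRNA against GFP over 22011 rows, 45 of 100 rows changed by 1 (log2) were recovered. Of 100 rows changed by 2, 84 were recovered, and there were 9 false calls. How the noise was drawn is not given here, so these counts are not read as the power of the comparisons above. Recovery in the arrays themselves, where 15 rows passed with shRNA, was not tested.

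The members, gene lists and classes were chosen with earlier results of these data known. In each comparison with GFP the text names up to 5 genes per direction by smallest p. It also names the 5 with the smallest F p, the 5 with the widest residual SD and, from related lists, genes among the 2 with the smallest p per list and comparison. Other genes, the motifs and the sequences were picked after values were seen. ATP5IF1, an inhibitor and no subunit, was taken off the oxidative phosphorylation list after values were seen.

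The labels call the samples biological replicates and give replicate numbers without saying what a number marks. Deviations of same-numbered arrays correlated above 0.1 in all 3 pairs of full-length MED12 and GFP (0.101 to 0.229) and of the PQL/Opa-deleted construct and GFP (0.149 to 0.472), which counts as paired. They did not in all pairs with shRNA (lowest 0.0223) or between the constructs (lowest 0.0761). The main fit holds no block, so its standard errors and p-values leave this pairing out. With the replicate block, 8 members had an unadjusted limma p under 0.05 for full-length MED12 and 7 for the PQL/Opa-deleted construct. No member passed the adjusted threshold in either. Alternatives were other scalings, a replicate block, array weights, another prior, a filter on level, fits of 2 groups, and arrays left out.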

Additional observations from a re-analysis of the deposited data

How the results depend on the processing

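The number of members called stayed at 0 in every comparison with GFP and between the constructs under all alternatives except array weights, which called 17 with shRNA (14 lower and 3 higher, 26.2% of members against 25.9% of all rows), with shRNA replicate 3 weighted at 8.77. For the F test the count was 1 with the replicate block (MRPL18) and 26 with array weights. The shares of all rows called by the F test in these fits are not given here. Neither count is therefore read as a result about the family. The replicate block changed no other call of a member. MRPL15 with shRNA changed from 0.02 to -0.63 with array weights. Among rows called with shRNA, 15 became 23 with quantile normalization, 5702 with array weights, 4 with only the groups compared, and 5 to 20 on leaving out 1 array. For the PQL/Opa-deleted construct, 1 became 2 with the replicate block and 20 with array weights, and for full-length MED12, 3 became 6 with array weights. Between the constructs, 1 became 2 with quantile normalization or rows above the median level, 4 with array weights, 0 with arrays centred on their medians, a trended robust prior or without the 3 narrowest arrays, and 0 to 3 on leaving out 1 array. The causes were not tested. Over all alternatives the members' median ranged from 0.02 to 0.19 for full-length MED12, 0.02 to 0.13 for the PQL/Opa-deleted construct and -0.20 to 0.00 for shRNA. Between the constructs it was 0.06, from 0.01 without full-length replicate 3 to 0.12 without PQL/Opa-deleted replicate 2. The scaling to 1 median and spread divided each array by its median absolute deviation. Averaging rows of a gene and leaving out pseudogenes changed nothing, since each gene has 1 row and 0 are pseudogenes.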
